A study of Mus musculus with 6 samples.

Results

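The 33 genes described here encode proteins of long-chain fatty acid uptake, activation, transport into mitochondria, β-oxidation and release from lipid droplets. They were chosen by symbol, with earlier results of these data known. Each was found in the count table through its Ensembl identifier in the GENCODE M21 annotation of GRCm38. The table holds 54532 genes, of which 13323 were expressed highly enough to be tested, and all 33 were among them. Read counts came from poly-A RNA of cardiomyocyte (CM) nuclei, pulled down with an antibody to the nuclear envelope protein PCM-1 from wildtype ICR mouse hearts. At postnatal day 6, the mice had received 1e+11 viral genomes of AAV9 under the skin, and the hearts were collected at day 9. The virus carried GFP, YAP6SA or YAP5SA behind the cardiac troponin T (cTnT) promoter, which acts in CMs, so every group had received virus and no group was uninjected. YAP5SA is a form of the transcriptional coactivator YAP in which serines that the LATS kinases phosphorylate were changed to alanine. YAP6SA has the same changes and a further substitution, which disrupts its binding to the TEAD transcription factors. There were 2 libraries per virus, and batches 1 and 2 each held 1 library of every group. Gene counts summed to 14552847 at the lowest and 19615627 at the highest, and pairs of counts are given in the order of the batches.

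*Xist*, which is expressed from the inactive X chromosome of females, had 1, 8 and 0 counts in the batch 1 libraries and 9350, 10550 and 10320 in the batch 2 libraries, so that batch and sex cannot be told apart. Counts on *Yap1* do not show the overexpression. They were 2647 and 1987 under GFP, 2397 and 2147 under YAP6SA and 2089 and 1828 under YAP5SA, with a log2 fold change of -0.17 (standard error 0.16, FDR 0.495) in YAP5SA against GFP. Transcripts that define CMs were abundant, with *Myh6*, the α-myosin heavy chain, at 8669 to 28041 CPM (counts relative to the TMM-scaled library size). The 7 adipocyte markers together had 0.368 to 1.02 CPM in a library, and *Cfd* had no count in any.

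Fatty acids reach the CM from lipoproteins and albumin, and are taken up with the help of CD36 and fatty acid transport proteins, bound by FABP3 and activated to acyl-CoA. The carnitine shuttle moves the acyl groups into mitochondria, and malonyl-CoA, made by acetyl-CoA carboxylase and removed by malonyl-CoA decarboxylase, inhibits its entry enzyme CPT1. In the matrix, β-oxidation removes acetyl units in repeated rounds of dehydrogenation, hydration, dehydrogenation and thiolysis, and the electrons pass through the electron transfer flavoprotein to the respiratory chain. The heart comes to rely on this pathway in the weeks after birth, under the control of PPARα, estrogen-related receptors and their coactivators of the PGC-1 family.

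Transcripts of the pathway took a smaller part of the RNA in YAP5SA OE CMs. The 33 genes held 0.967% and 0.915% of all gene counts under GFP, 0.778% and 0.844% under YAP6SA, and 0.595% and 0.440% under YAP5SA. The 3 groups did not overlap. Within a batch, the YAP5SA share was 61.6% of the GFP share in batch 1 and 48.1% in batch 2, and the YAP6SA share was 80.5% and 92.2%. With 2 libraries in each group, an exact permutation test on these shares could not reach the threshold, and none was made. The β-oxidation enzymes made up the largest part of the share in all 6 libraries, with 0.360% of gene counts in both GFP libraries and 0.230% and 0.174% in the YAP5SA libraries. In bulk libraries, fewer CM nuclei and less RNA of a gene per nucleus cannot be told apart.

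**Figure D1:**
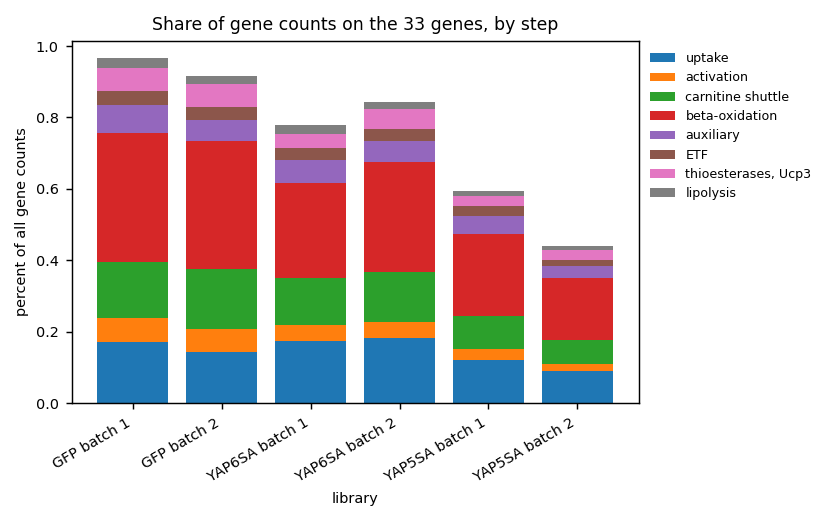
Percent of all gene counts (vertical axis) on the 33 genes in each of the 6 libraries, stacked by step of the pathway. The YAP5SA bars reach 0.595% and 0.440%, below the 0.967% and 0.915% of the GFP bars.

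In YAP5SA against GFP, 25 of the 33 genes fell and 0 rose at an FDR under 0.05 (edgeR quasi-likelihood test with a batch term over all 6 libraries). Of all genes tested, 9.18% were called lower and 12.8% higher. The median log2 fold change of the 33 genes was -0.92, against -0.0031 over all genes tested, and 32 of the 33 estimates were below 0. Taken within batches, the median was -0.73 in batch 1 and -0.98 in batch 2, and 23 of the 33 genes had the lower estimate in batch 2. In 26 of the 33 genes, both YAP5SA libraries lay below both GFP libraries, which was so for 29.7% of all genes tested. The *Acadl*, *Acaa2*, *Lpl*, *Fabp3*, *Ech1*, *Etfb*, *Acot2* and *Acot13* transcripts were not called. The count of 25 depended on single libraries and on the scaling. It was 16 without the GFP library of batch 1 (5.19% of all genes called lower) and 10 without that of batch 2 (1.34%). A fit of only the 4 YAP5SA and GFP libraries called 22 (7.27%), losing *Acads* (FDR 0.0765), *Etfa* (FDR 0.0792) and *Pnpla2* (FDR 0.0526). The count was 3 (*Acsl1*, *Ucp3* and *Mlycd*) when libraries were scaled to 10 CM marker genes in place of TMM. This moved the median of all genes by 0.57 and left the 33 genes 0.93 below it, and of all genes it called 0.54% lower and 20% higher.

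**Figure D2:**
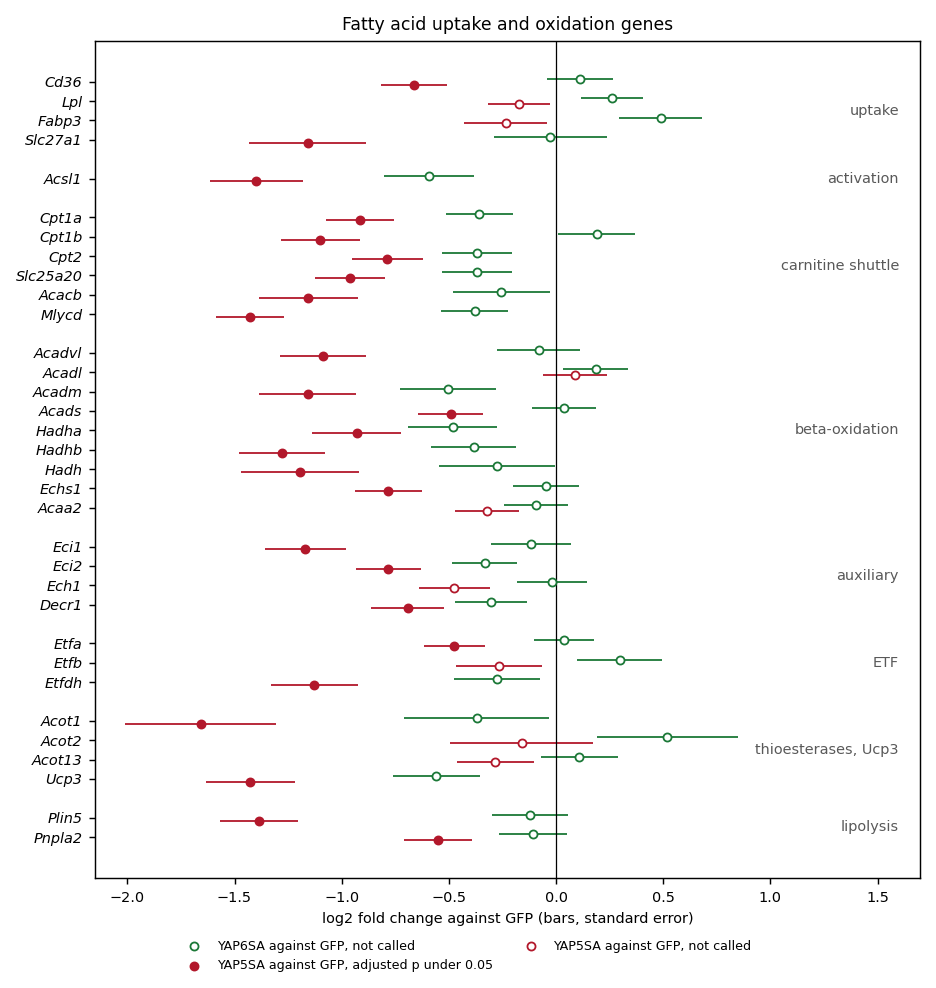
log2 fold change against GFP (horizontal axis, bars show the standard error) of the 33 genes, grouped by step, in YAP6SA (green) and YAP5SA (red), with filled points at an FDR under 0.05. The red points of 25 genes are filled and lie below 0, whereas none of the green points is filled.

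In YAP6SA against GFP, 0 of the 33 genes passed the threshold, at a lowest FDR of 0.707, and 0% of all genes were called lower and 0.045% higher (edgeR). At an unadjusted p under 0.05, 8 of the 33 were lower and 1 was higher, against 2.07% and 3.86% of all genes. Their median was -0.12 on the log2 scale, with -0.17 in batch 1 and -0.07 in batch 2, and it was 0.03 without the YAP6SA library of batch 1, -0.37 without that of batch 2, -0.21 without the GFP library of batch 1 and -0.10 without that of batch 2. The 95% confidence interval excluded a log2 fold change of -1 for 29 of the 33 genes, and smaller changes may not be detectable with 2 libraries per group. A fit of only the 4 YAP6SA and GFP libraries, which does not take its estimate of the spread from YAP5SA, called 4 of the 33 lower (0.585% of all genes), and DESeq2 over all libraries called 0. The 4 were *Acsl1* at -0.59 (FDR 0.00901), *Ucp3* at -0.57 (FDR 0.0195), *Acadm* at -0.51 (FDR 0.0342) and *Hadha* at -0.48 (FDR 0.0424). Both YAP6SA libraries lay below both GFP libraries for 14 of the 33 genes (17% of all genes) and above them for 3, *Lpl*, *Fabp3* and *Acadl* (17.3% of all genes).

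The YAP variants were compared directly as well, and this comparison shares its YAP5SA libraries with the one against GFP. In YAP5SA against YAP6SA, 19 of the 33 genes were lower and 0 higher (5.68% and 9% of all genes), with a median of -0.68 and all 33 estimates below 0. Both YAP5SA libraries lay below both YAP6SA libraries for 31 genes, *Acadl* and *Ech1* being the exceptions, and this was so for 28.9% of all genes. The count of 19 was 10 without the batch term (2.26% of all genes called lower), 2 (*Cpt1b* and *Plin5*) without the YAP6SA library of batch 2 (0.51%), 11 without the YAP5SA library of batch 2 (2.77%) and 16 in a fit of only the 4 libraries compared (5.1%), which lost *Cpt1a*, *Slc25a20*, *Acads* and *Etfa* and gained *Hadh*. Scaled to the CM markers, it was 0, with 0.293% of all genes called lower and 18.4% higher.

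**Figure D3:**
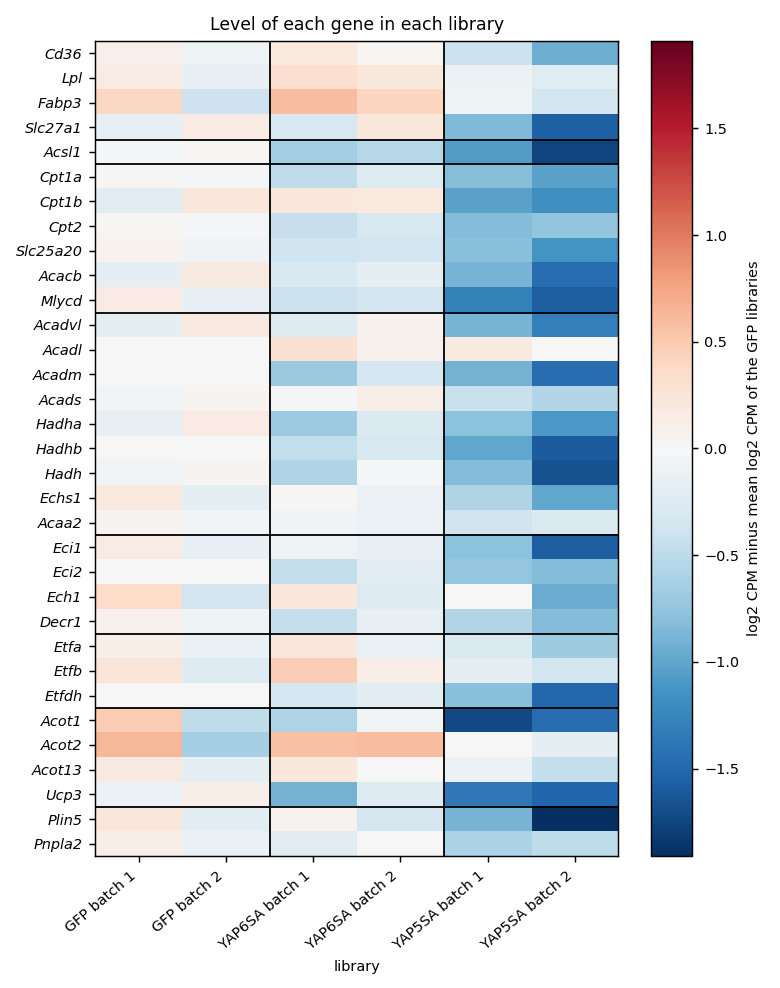
Level of each of the 33 genes (rows, in the order of the pathway) in each library (columns), as log2 CPM minus the mean log2 CPM of the GFP libraries, with blue for lower and red for higher. The YAP5SA columns are blue in most rows, more so in batch 2, and the YAP6SA columns are mixed.

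Since YAP6SA differs from YAP5SA in TEAD binding, the promoters were searched for the TEAD letters CATTCC on both strands, in windows from 250 bases before to 50 bases after each start (RefSeq, GRCm38.p6). Of the 33 genes, 28 were in the promoter table, and 5 of these (17.9%) held the letters, against 16.6% of all 27025 genes. The core letters of estrogen-related receptor sites, AAGGTCA, were in 2 of the 28 (*Acadm* and *Acacb*, 7.14%), against 5.38% of all genes. Their extended form TCAAGGTCA, which contains the core, and the PPAR-RXR repeat (copies of AGGTCA with 1 base between them) were each in 0 of the 28, and in 0.466% and 0.0481% of all genes. The 60-base stretches around the matches before the start are shown because they are the matches outside exons among the 28 genes, with the matched letters (or their reverse complement) in capitals. Each is written 5′ to 3′ on the strand of its gene and lies outside annotated exons, that of *Cpt1a* between the first annotated base of the gene and the RefSeq start. A match is a description of the sequence, and binding was not measured here. The TEAD letters stand 138 bases before the start in *Acsl1*, 152 in *Cpt1a*, 142 in *Slc25a20* and 146 in *Etfb*, and those of the receptor core 249 bases before the start in *Acadm*.
*Acsl1*, chr8:46470872-46470931, plus strand: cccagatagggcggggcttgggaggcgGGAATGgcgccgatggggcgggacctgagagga
*Cpt1a*, chr19:3323122-3323181, plus strand: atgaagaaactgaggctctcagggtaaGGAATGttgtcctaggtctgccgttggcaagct
*Slc25a20*, chr9:108661967-108662026, plus strand: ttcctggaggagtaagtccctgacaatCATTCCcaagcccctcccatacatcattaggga
*Etfb*, chr7:43443899-43443958, plus strand: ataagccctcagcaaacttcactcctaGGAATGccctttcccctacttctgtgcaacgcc
*Acadm*, chr3:153944834-153944893, minus strand: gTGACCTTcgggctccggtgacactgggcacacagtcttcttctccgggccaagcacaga
Among these genes, *Acsl1*, *Cpt1a*, *Slc25a20* and *Acadm* fell in YAP5SA OE CMs and *Etfb* was not called, where 25 of all 33 genes fell. The fifth gene with the TEAD letters, *Slc27a1*, is not shown because the stretch around them overlaps an annotated exon. *Slc27a1* and *Acacb* fell as well, and a relation between the letters and the fall was not tested.

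Of the 4 uptake genes, 2 fell in YAP5SA OE CMs. *Slc27a1* (ENSMUSG00000031808, chromosome 8, 71568882 to 71587302, plus strand) encodes fatty acid transport protein 1. It had 14011 and 13882 counts under GFP, 13046 and 15698 under YAP6SA and 6862 and 4953 under YAP5SA. Both YAP5SA libraries were lower than all others, and the log2 fold change was -1.16 (standard error 0.27, FDR 0.0149), a fall to 44.8% of GFP. *Cd36* (ENSMUSG00000002944, chromosome 5, 17781690 to 17888801, minus strand), the membrane receptor that facilitates fatty acid entry, had 2806 and 1993 counts under GFP, 3087 and 2350 under YAP6SA and 1579 and 1298 under YAP5SA. Its log2 fold change was -0.66 (standard error 0.16, FDR 0.0152) against GFP, and the YAP6SA libraries (149.8 ± 10.3 CPM; mean ± SD, n = 2) overlapped the GFP libraries (139 ± 12.3 CPM). *Fabp3*, the cytosolic carrier of fatty acids in muscle, had 12621 and 5875 counts under GFP, 14876 and 11042 under YAP6SA and 7150 and 7024 under YAP5SA, and its GFP libraries were far apart at 664 and 384 CPM. YAP5SA overlapped GFP, with -0.24 (standard error 0.19, FDR 0.415), whereas both YAP6SA libraries were above both GFP libraries, and the log2 fold change of YAP5SA against YAP6SA was -0.72 (standard error 0.19, FDR 0.0338). Of the exon bases of *Fabp3*, 19.6% overlap genes on the other strand, and 21.7% of its 100-base windows occur in the processed pseudogene *Fabp3-ps1*. *Lpl*, the lipase that frees fatty acids from lipoproteins, had a log2 fold change of -0.17 (standard error 0.14, FDR 0.421) in YAP5SA and 0.26 (standard error 0.14, FDR 0.865) in YAP6SA.

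*Acsl1* (ENSMUSG00000018796, chromosome 8, 46471037 to 46536051, plus strand), the main long-chain acyl-CoA synthetase of the heart, fell to 38.0% of GFP. It had 12650 and 10483 counts under GFP, 8481 and 7635 under YAP6SA and 4840 and 3559 under YAP5SA. Scaled, these were 675 ± 13.8 CPM under GFP, 447 ± 22.2 under YAP6SA and 260.0 ± 85.7 under YAP5SA, without overlap between any of the groups. The log2 fold change was -1.40 (standard error 0.22, FDR 0.00233) in YAP5SA and -0.59 (standard error 0.21, FDR 0.707) in YAP6SA against GFP, and -0.81 (standard error 0.21, FDR 0.0323) between the variants.

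All 6 genes of the carnitine shuttle and its malonyl-CoA control fell in YAP5SA OE CMs. *Cpt1a* and *Cpt1b* encode the liver and muscle forms of carnitine palmitoyltransferase 1, the entry enzyme. *Cpt1a* (ENSMUSG00000024900, chromosome 19, 3322334 to 3385733, plus strand) had 2509 and 1970 counts under GFP, 1832 and 1819 under YAP6SA and 1117 and 1145 under YAP5SA, with a log2 fold change of -0.92 (standard error 0.16, FDR 0.00413). *Cpt1b* (ENSMUSG00000078937, chromosome 15, 89416405 to 89425863, minus strand) had 910 and 993 counts under GFP, 1262 and 1048 under YAP6SA and 414 and 442 under YAP5SA, with -1.10 (standard error 0.18, FDR 0.00353). In both genes the YAP5SA libraries lay below all other libraries. In YAP6SA, the estimates of the pair had opposite signs, at -0.36 (standard error 0.16, FDR 0.838) for *Cpt1a* and 0.19 (standard error 0.18, FDR 0.929) for *Cpt1b*, neither of which was called. The counts of *Cpt1b* are uncertain, because 81.4% of its exon bases overlap the readthrough gene *Gm44502*. Downstream, *Slc25a20*, the carnitine-acylcarnitine carrier of the inner membrane, fell by 0.96 (FDR 0.00403), and *Cpt2*, which re-forms acyl-CoA in the matrix, fell by 0.79 on the log2 scale (FDR 0.00965).

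The transcripts of *Acacb* and *Mlycd*, whose enzymes make and remove malonyl-CoA, both fell. *Acacb* (ENSMUSG00000042010, chromosome 5, 114146535 to 114250761, plus strand), the mitochondrial acetyl-CoA carboxylase that makes malonyl-CoA, had 19733 and 20073 counts under GFP, 18652 and 16838 under YAP6SA and 9526 and 7621 under YAP5SA. *Mlycd* (ENSMUSG00000074064, chromosome 8, 119394878 to 119411102, plus strand), the decarboxylase that removes it, had 4150 and 2682 counts under GFP, 2880 and 2535 under YAP6SA and 1208 and 1177 under YAP5SA. For either gene, the YAP5SA libraries lay below all others. *Acacb* fell to 44.9% of GFP with a log2 fold change of -1.16 (standard error 0.23, FDR 0.00779), and the within-batch estimates were -0.72 and -1.62. *Mlycd* fell to 37.1% with -1.43 (standard error 0.16, FDR 0.000564), the lowest FDR of the 33 genes, and -1.45 and -1.41 within batches. *Acaca*, the cytosolic carboxylase, which is on the fatty acid synthesis list and was singled out after its values were seen, was not called, at 0.13 (standard error 0.29, FDR 0.777).

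In the β-oxidation chain, 7 of 9 genes fell in YAP5SA OE CMs, among them 3 of the 4 acyl-CoA dehydrogenases of the first step. *Acadm* (ENSMUSG00000062908, chromosome 3, 153922357 to 153944632, minus strand), the medium-chain enzyme, had 21408 and 17581 counts under GFP, 13702 and 14873 under YAP6SA and 9136 and 7426 under YAP5SA. *Acadvl* (ENSMUSG00000018574, chromosome 11, 70010183 to 70015411, minus strand), the very-long-chain enzyme, had 2853 and 2887 counts under GFP, 2796 and 2930 under YAP6SA and 1366 and 1209 under YAP5SA. Each had both YAP5SA libraries below all other libraries, with -1.16 (standard error 0.23, FDR 0.00709) and -1.09 (standard error 0.20, FDR 0.00523), although 42.9% of the exon bases of *Acadvl* overlap *Dvl2* on the other strand. *Acads*, the short-chain enzyme, fell by 0.49 on the log2 scale (FDR 0.043). *Acadl* (ENSMUSG00000026003, chromosome 1, 66830839 to 66863277, minus strand), the long-chain enzyme, had 3643 and 2972 counts under GFP, 4642 and 3356 under YAP6SA and 3272 and 3461 under YAP5SA. Its levels were 193 ± 1.80 CPM under GFP and 205 ± 16.1 under YAP5SA, with overlapping libraries, and its log2 fold change was 0.09 (standard error 0.15, FDR 0.712), with a 95% confidence interval from -0.25 to 0.42. This was the only estimate above 0 among the 33 genes in YAP5SA against GFP.

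The later steps held the trifunctional protein, whose subunits are encoded by the neighbouring genes *Hadha* and *Hadhb*. *Hadha* (ENSMUSG00000025745, chromosome 5, 30118304 to 30155162, minus strand) had 14753 and 14839 counts under GFP, 10548 and 11796 under YAP6SA and 7578 and 7199 under YAP5SA. *Hadhb* (ENSMUSG00000059447, chromosome 5, 30155248 to 30184593, plus strand) had 7420 and 6074 counts under GFP, 5584 and 5239 under YAP6SA and 2988 and 2320 under YAP5SA. For both subunits, the YAP6SA libraries lay below GFP and the YAP5SA libraries below YAP6SA, and the log2 fold changes in YAP5SA against GFP were -0.93 (standard error 0.21, FDR 0.0129) and -1.28 (standard error 0.20, FDR 0.00266). *Hadh* (ENSMUSG00000027984, chromosome 3, 131233419 to 131272101, minus strand), the short-chain 3-hydroxyacyl-CoA dehydrogenase, had 10130 and 8742 counts under GFP, 7308 and 8849 under YAP6SA and 4693 and 3115 under YAP5SA. It fell by 1.19 (FDR 0.0142), with -0.78 in batch 1 and -1.71 in batch 2. *Echs1*, the short-chain enoyl-CoA hydratase, fell by 0.78 (FDR 0.00779). *Acaa2*, the thiolase that releases acetyl-CoA, had -0.32 (standard error 0.15, FDR 0.149) and was not called, although both YAP5SA libraries lay below both GFP libraries.

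The auxiliary enzymes handle unsaturated fatty acids, and 3 of 4 fell in YAP5SA OE CMs. *Eci1* (ENSMUSG00000024132, chromosome 17, 24426641 to 24439348, plus strand), an enoyl-CoA isomerase, had 4866 and 3183 counts under GFP, 4227 and 3425 under YAP6SA and 2016 and 1375 under YAP5SA. All YAP5SA counts were the lowest, with -1.17 (standard error 0.19, FDR 0.00294), whereas YAP6SA overlapped GFP. *Eci2*, a second isomerase, had 3206 and 2557 counts under GFP, 2414 and 2373 under YAP6SA and 1523 and 1679 under YAP5SA, with -0.78 (standard error 0.15, FDR 0.00658). *Decr1*, the dienoyl-CoA reductase, had 2259 and 1627 counts under GFP, 1605 and 1656 under YAP6SA and 1149 and 1130 under YAP5SA, with -0.69 (standard error 0.17, FDR 0.0181). On the CPM scale, the YAP5SA libraries of *Eci2* and *Decr1* lay below all others. *Ech1*, the dienoyl-CoA isomerase, had -0.47 (standard error 0.16, FDR 0.0646), with libraries that overlapped.

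Of the 3 genes that pass electrons from the dehydrogenases to ubiquinone, 2 fell in YAP5SA OE CMs. *Etfdh* (ENSMUSG00000027809, chromosome 3, 79603788 to 79629500, minus strand), the oxidoreductase of the inner membrane, had 5149 and 4110 counts under GFP, 4183 and 3820 under YAP6SA and 2340 and 1705 under YAP5SA. It fell to 45.8% of GFP, with -1.13 (standard error 0.20, FDR 0.00511). The flavoprotein subunits had smaller estimates. *Etfa* had 1942 and 1317 counts under GFP, 2136 and 1404 under YAP6SA and 1168 and 1047 under YAP5SA, and fell by 0.48 (FDR 0.0389). *Etfb* had 498 and 287 counts under GFP, 604 and 400 under YAP6SA and 297 and 309 under YAP5SA, with -0.26 (standard error 0.20, FDR 0.376) and overlapping libraries, and 58.2% of its exon bases overlap other genes. The difference between subunits was not tested.

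*Ucp3* and *Acot1* fell, and *Acot2* and *Acot13* were not called. *Ucp3* (ENSMUSG00000032942, chromosome 7, 100472990 to 100486432, plus strand), the muscle uncoupling protein, had 10707 and 10088 counts under GFP, 6397 and 8490 under YAP6SA and 3570 and 3805 under YAP5SA. The groups were ordered without overlap, at 611 ± 67.8 CPM under GFP, 420.1 ± 134 under YAP6SA and 225 ± 16.4 under YAP5SA, with -1.43 (standard error 0.21, FDR 0.00176) in YAP5SA and -0.56 (standard error 0.20, FDR 0.708) in YAP6SA against GFP. *Acot1* (ENSMUSG00000072949, chromosome 12, 84009490 to 84018371, plus strand), a cytosolic acyl-CoA thioesterase, had 568 and 233 counts under GFP, 278 and 338 under YAP6SA and 97 and 138 under YAP5SA. Its fall of 1.66 on the log2 scale was the largest of the 33 (standard error 0.35, FDR 0.0101), with the largest standard error and -2.22 and -0.98 within batches. *Acot2*, its mitochondrial neighbour, had 276 and 93 counts under GFP, 273 and 232 under YAP6SA and 141 and 147 under YAP5SA, so that the GFP libraries spanned all others on the CPM scale. Reads of the pair cannot be fully told apart, since 12.4% of the 100-base windows of *Acot1* and 17.1% of those of *Acot2* occur in transcripts of other genes, the partner among them. *Acot13*, a mitochondrial thioesterase, had 661 and 422 counts under GFP, 702 and 515 under YAP6SA and 431 and 404 under YAP5SA, with -0.28 (standard error 0.18, FDR 0.287).

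Both lipolysis genes fell in YAP5SA OE CMs. *Plin5* (ENSMUSG00000011305, chromosome 17, 56111601 to 56117596, minus strand), which coats lipid droplets and holds them near mitochondria, had 2571 and 1538 counts under GFP, 2404 and 1540 under YAP6SA and 947 and 553 under YAP5SA. *Pnpla2* (ENSMUSG00000025509, chromosome 7, 141455198 to 141460743, plus strand), the adipose triglyceride lipase, had 2585 and 1745 counts under GFP, 2127 and 2049 under YAP6SA and 1238 and 1581 under YAP5SA. *Plin5* fell to 38.2% of GFP, with -1.39 (standard error 0.18, FDR 0.00111), and *Pnpla2* to 68.2%, with -0.55 (standard error 0.16, FDR 0.0343). Their YAP6SA libraries overlapped those of GFP, and YAP5SA was lower than YAP6SA for *Plin5* (-1.26, FDR 0.00237) but not called for *Pnpla2* (FDR 0.0903).

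Per kilobase of exon that no other gene overlaps, the most abundant of the 33 transcripts in GFP CMs was *Fabp3* at 791 ± 299 CPM per kb (SD, n = 2), followed by *Acadm* at 290 ± 4.07, *Ucp3* at 195 ± 21.6 and *Acaa2* at 159 ± 7.51. These neighbours differed by more than their SD. From *Acaa2* down to *Etfdh* at 37.3 ± 0.227, no neighbours did, and *Acot1* (5.75 ± 2.64) and *Acot2* (4.69 ± 2.72) were the lowest. Across the 33 genes, which share libraries and are not independent, the log2 fold change in YAP5SA against GFP had a Spearman rho of -0.44 with exon length and -0.38 with the mean log2 CPM in GFP, and in YAP6SA -0.50 and -0.41.

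Other genes of fatty acid breakdown were lower as well in YAP5SA against GFP. Of all genes tested in this comparison, 9.18% were called lower and 12.8% higher. Of 17 peroxisomal oxidation genes, 12 fell and 0 rose, with a median of -0.80. Those that fell included *Abcd2*, a peroxisomal transporter of very-long-chain acyl-CoA, at -2.62 (standard error 0.50, FDR 0.00643), *Pex11a*, a peroxisome proliferation factor, at -1.54 (standard error 0.19, FDR 0.000802), and *Crat*, carnitine acetyltransferase, at -1.07 (standard error 0.19, FDR 0.00522). Of 12 other acyl-CoA dehydrogenases and matrix enzymes, which include *Hadh*, 6 fell and 0 rose, with a median of -0.69, and *Acad10* (-1.33, FDR 0.00172), *Acad12* (-1.16, FDR 0.0142) and *Hadh* moved most. Of 8 other synthetases, *Acss1* (-1.27, FDR 0.00382) and *Acss2* (-1.20, FDR 0.00798), which activate acetate, fell, and *Acsl5*, a long-chain synthetase, rose by 1.31 (FDR 0.00625), in contrast to *Acsl1*. Of 10 other uptake and binding genes, *Vldlr*, the very-low-density lipoprotein receptor (-0.89, FDR 0.0192), and *Slc27a4*, another transport protein (-0.55, FDR 0.0489), fell, and *Fabp4* rose (0.59, FDR 0.0394). *Fabp4* is also a marker of capillary endothelium, and it was the 1 of 11 endothelial markers that was called. Both *Fabp4* and *Gpihbp1* stand on the uptake list and among the endothelial markers, so the counts of these 2 lists are not separate. None of the genes on these lists was called in YAP6SA against GFP (edgeR), where 2 other uptake genes were higher and 1 peroxisomal gene lower at an unadjusted p under 0.05. The peroxisomal median was -0.24 in that comparison, with 15 of 17 estimates below 0. Both YAP6SA libraries lay below both GFP libraries for 10 of the 17 (17% of all genes) and above them for 1 (17.3%).

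Of 15 lipid droplet and triglyceride genes, 7 fell and 0 rose in YAP5SA against GFP (9.18% and 12.8% of all genes), with a median of -0.59. *Dgat2*, which completes triglyceride synthesis, had 801 and 694 counts under GFP, 830 and 620 under YAP6SA and 251 and 173 under YAP5SA, with -1.77 (standard error 0.23, FDR 0.00111). *Plin4*, a lipid droplet coat protein, fell by 0.87 (FDR 0.0302), and *G0s2*, an inhibitor of the lipase encoded by *Pnpla2*, fell by 0.86 (FDR 0.0145). Of 9 fatty acid synthesis genes, 0 fell and 1 rose (edgeR), *Fads1*, a desaturase (1.15, FDR 0.0153), with 2 in each direction at an unadjusted p under 0.05 (17% of all genes lower and 19.4% higher) and a median of -0.10.

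Of 19 transcriptional regulators of oxidation, 6 fell and 0 rose in YAP5SA against GFP (9.18% and 12.8% of all genes), with a median of -0.59. *Esrra*, estrogen-related receptor α, had 13378 and 9530 counts under GFP, 10489 and 9622 under YAP6SA and 5782 and 5022 under YAP5SA. Its YAP5SA libraries were below all others, with -1.004 (standard error 0.19, FDR 0.00555). *Rxrg*, a retinoid X receptor, fell by 1.67 (FDR 0.012), *Esrrb* by 1.42 (FDR 0.0459) and *Ppargc1b*, a PGC-1 coactivator, by 1.25 (FDR 0.0012). Not called were *Ppara* at -0.92 (standard error 0.35, FDR 0.0888), *Ppargc1a* at -0.94 (standard error 0.35, FDR 0.0846) and *Esrrg* at -0.69 (standard error 0.26, FDR 0.0814). In *Ppargc1a*, the YAP6SA library of batch 1 stood apart with 357 CPM, against 66.7 to 177 in the other 5. In YAP6SA against GFP, 0 of the 19 were called (edgeR), with 1 lower at an unadjusted p under 0.05.

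Genes of the later steps of mitochondrial metabolism were counted in the same way. Of 22 TCA cycle genes, 6 fell and 0 rose in YAP5SA against GFP, with a median of -0.38, among them *Idh1* (-1.03) and *Ogdh* (-0.92). Of 70 nuclear genes of the respiratory chain, 5 fell and 9 rose in YAP5SA against GFP (9.18% and 12.8% of all genes), with a median of 0.10. The complex I subunit genes *Ndufa1* (0.88) and *Ndufb10* (-0.79) and the complex IV gene *Cox7a2* (0.78) moved most. The median of the 70 genes in YAP6SA against GFP was 0.32, with 67 of 70 estimates above 0, 0 called (edgeR), 23 higher and 0 lower at an unadjusted p under 0.05 (3.86% and 2.07% of all genes), and both YAP6SA libraries above both GFP libraries for 44 of 70 (17.3% of all genes). All 10 mRNAs of the mitochondrial genome that were tested rose in YAP5SA against GFP, with a median of 0.95, and in YAP6SA their median was 0.79 with 0 called (edgeR) and all 10 higher at an unadjusted p under 0.05. The libraries were made from isolated nuclei, whereas these transcripts come from mitochondria. How much mitochondrial RNA was carried along in each library was not tested. In the TCA cycle list, the YAP6SA median was 0.11, with 0 called (edgeR) and 1 higher at an unadjusted p under 0.05. Of 19 glycolysis genes, 5 fell and 3 rose in YAP5SA against GFP, with a median of -0.23, and *Slc2a1*, a glucose transporter, rose by 2.39 (FDR 0.0079). In YAP6SA against GFP the glycolysis median was -0.05, with 0 called (edgeR) and 2 higher at an unadjusted p under 0.05. The difference between these lists and the 33 genes was not tested. Scaled to the CM markers, the median of all genes in YAP5SA against GFP was 0.57, with 0.54% of them called lower and 20% higher. At this scaling, 0 stands for the mean change of the CM markers, and the 33 genes had a median of -0.36 with 3 called lower. The lists are set here beside the median of all genes. Below it were the peroxisomal genes (-0.24, 2 lower), the other dehydrogenases and matrix enzymes (-0.14), the regulators (-0.014, 1 lower) and the lipid droplet genes (-0.0006, 1 lower). Also below it were the TCA cycle (0.19), glycolysis (0.34, 3 higher), other synthetases (0.23, 1 higher), other uptake genes (0.51, 1 higher) and fatty acid synthesis (0.47, 2 higher). The nuclear respiratory chain was above it (0.68), with 17 of 70 higher and 0 lower. Of the 33 genes, the medians of the uptake genes (0.11) and of the electron transfer genes (0.094) were above 0 and those of the other steps below it. All of these medians lay below that of all genes. The scaling moves all estimates by about the same amount, so a crossing of 0 does not set steps apart.

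**Figure D4:**
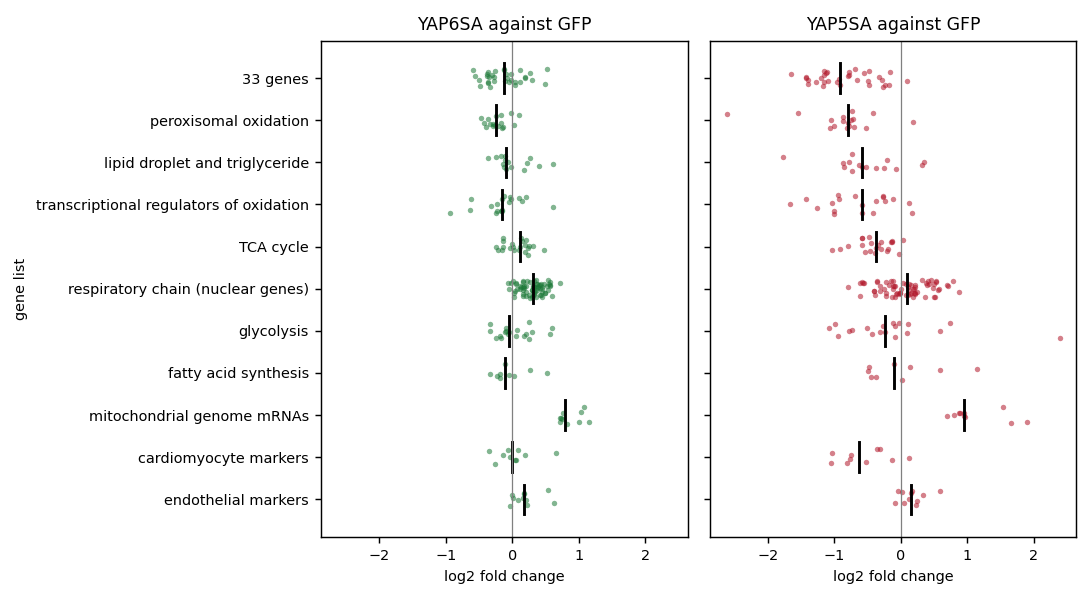
log2 fold change against GFP (horizontal axis) of each tested gene (points) in the 33 genes and 10 further lists (rows), with the median as a black line, for YAP6SA (left) and YAP5SA (right). In YAP5SA the median of the 33 genes is -0.92 and that of the respiratory chain 0.10.

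Markers of cell types moved beside these changes. The 10 CM markers summed to 54330 and 71945 CPM under GFP, 53413 and 66737 under YAP6SA, and 46339 and 33759 under YAP5SA. *Myh6* was the most abundant of them under GFP and YAP6SA, and *Tnnt2* under YAP5SA. In YAP5SA against GFP, 2 of the 10 fell (9.18% of all genes), *Pln* (-1.04, FDR 0.00784) and *Ryr2* (-0.81, FDR 0.0455). The median was -0.63, with -0.21 in batch 1 and -0.98 in batch 2, where the 33 genes had -0.73 and -0.98. At an unadjusted p under 0.05 (edgeR), 5 of the 10 markers were lower and 0 higher (17% and 19.4% of all genes). Both YAP5SA libraries lay below both GFP libraries for 7 of the 10 markers (29.7% of all genes) and above them for 0 (31.2%). Their part in the fall of the 33 genes was not tested, beyond the scaling to these markers given above. The 11 endothelial markers summed to 766 and 588 CPM in GFP, 954 and 635 in YAP6SA and 814 and 644 in YAP5SA, with *Egfl7* the most abundant and a median of 0.15 in YAP5SA against GFP. The 8 fibroblast markers summed to 1367 and 860.0 CPM in GFP, 1777 and 984 in YAP6SA and 1496 and 906 in YAP5SA, with *Col3a1* the most abundant and 0 called in YAP5SA against GFP (edgeR, 2 higher and 1 lower at an unadjusted p under 0.05). The 8 macrophage markers summed to 59.8 and 81.2 CPM in GFP, 70.8 and 99.0 in YAP6SA and 85.7 and 134 in YAP5SA, with *Csf1r* the most abundant. Of the 7 tested, 2 rose in YAP5SA against GFP (12.8% of all genes), *Lyz2* (1.43) and *C1qa* (0.96). All 7 estimates were above 0 there, with a median of 0.87 and 4 higher at an unadjusted p under 0.05 (19.4% of all genes). Of 7 mural markers, in the same comparison, *Myh11* rose and *Abcc9*, which CMs also express, fell. Of 6 erythroid markers, 2 were tested and 0 called (edgeR, 0 at an unadjusted p under 0.05). No marker on these lists was called in YAP6SA against GFP (edgeR). Estimates of that comparison were above 0 for all 8 fibroblast markers (median 0.32, 3 higher at an unadjusted p under 0.05), 9 of 11 endothelial markers (0.18, 2 higher), 6 of 7 macrophage markers (0.36, 1 higher), all 7 mural markers (0.08, 1 higher) and 5 of 10 CM markers (-0.0027, 1 higher), and their part in the YAP6SA values was not tested.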

How the data were processed

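The authors enriched CM nuclei, made poly-A, non-directional libraries, aligned the reads to mm10 by STAR, using Ensembl GRCm38.94 gene models, and deposited whole-number counts per gene, not normalized. Counting without strand cannot separate overlapping genes. Per library, 14552847 to 19615627 counts lay on genes, and 4 summary rows that name no gene were left out. The main test was the quasi-likelihood F-test of edgeR 4.0.16 (R 4.3.3) after TMM scaling, in 1 model of all 6 libraries with batch and group terms. Genes with a median log2 CPM over 1 in at least 1 group were kept (13323 genes), with Benjamini-Hochberg adjustment over all of them and a threshold of 0.05 (FDR). The batch pairs the libraries, as the labels give it as the replicate number, and deviations from group means correlated across genes at 0.296, 0.0829 and 0.161. P-values measure the spread between 2 libraries per group. On simulated counts for YAP5SA against GFP with 12999 genes, 96 of 99 genes with a 4-fold change and 63 of 99 with a 2-fold change were called. So were 23 of 12801 unchanged genes, and the simulated counts held no batch effect. Alternatives were DESeq2 1.42.0 and its size factors, limma-voom (limma 3.58.1), the likelihood ratio test, other filters, no batch term, 4-library fits and each library left out. The scaling to CM markers was added after the data were seen. The members and gene lists were chosen with earlier results of these data known. All 33 genes are described, with counts per library for up to 3 genes per step (4 for β-oxidation) with the largest change in YAP5SA, the 4 called in the 4-library fit and the isoform pairs. In other lists, up to 3 called genes with the largest change are named, and *Ppara*, *Ppargc1a*, *Esrra* and *Esrrg*. Some genes that this rule would name, and the ketone body list, are not reported here.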

Additional observations from a re-analysis of the deposited data

How the results depend on the processing

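With 2 libraries per group, the standard errors of the 33 genes ran from 0.14 to 0.35 on the log2 scale, and a group left with a lone library was assumed to vary like the others. In YAP5SA against GFP, 25 genes were called lower. The same number was called with DESeq2's size factors, and 23 with DESeq2. Without the replicate block the count was 21 there, and 10 in YAP5SA against YAP6SA. Over all genes, the calls without the block were 1152 in YAP5SA against YAP6SA, in place of 1956, and 0 in YAP6SA against GFP, in place of 6. The block is the batch. In YAP6SA against GFP, all genes called numbered 145 with no filter, 82 with the likelihood ratio test, 54 with DESeq2, 13 when scaled to CM markers and 276 in the fit of 4 libraries, which called 4 of the 33 lower.

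With each library left out in turn, the genes called lower ran from 0 to 3 in YAP6SA against GFP, from 10 to 26 in YAP5SA against GFP and from 2 to 25 in YAP5SA against YAP6SA. All genes called ran from 6 to 213, from 738 to 4863 and from 396 to 4160. The median of the 33 genes ran from -0.37 to 0.033, from -1.06 to -0.67 and from -0.88 to -0.48. In YAP6SA against GFP, 14 uncalled estimates changed sign when a library was left out, with log2 fold changes of *Cpt1b* -0.064 to 0.46, *Acads* -0.039 to 0.11, *Echs1* -0.18 to 0.086, *Etfa* -0.029 to 0.10, *Acot1* -1.01 to 0.37, *Pnpla2* -0.31 to 0.10, *Slc27a1* -0.42 to 0.30, *Acacb* -0.52 to 0.048, *Acadvl* -0.27 to 0.12, *Acot2* -0.015 to 1.16, *Plin5* -0.29 to 0.033, *Hadh* -0.77 to 0.12, *Eci1* -0.38 to 0.12 and *Ech1* -0.21 to 0.16. In YAP5SA against GFP, 3 did, also uncalled, with *Fabp3* -0.51 to 0.070, *Acadl* -0.0041 to 0.19 and *Acot2* -0.69 to 0.50.

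Scaling to the 10 CM markers, chosen after the data were seen, moves all estimates of a comparison by about the same amount, so the changes of sign follow from its construction. The median of the 33 genes became -0.36 with 3 called lower in YAP5SA against GFP, where 72 of all genes were called lower and 2663 higher, and -0.077 with 0 called in YAP5SA against YAP6SA (edgeR), where 39 were lower and 2455 higher. In YAP5SA against GFP, *Acadl* stayed above 0 at 0.66, and 10 genes moved from below to above 0, with log2 fold changes of *Lpl* 0.39, *Acot2* 0.39, *Fabp3* 0.32, *Etfb* 0.31, *Acot13* 0.28, *Acaa2* 0.25, *Etfa* 0.094, *Ech1* 0.077, *Acads* 0.070 and *Pnpla2* 0.011. In YAP5SA against YAP6SA, 15 did, with *Acadl* 0.50, *Acaa2* 0.39, *Acot13* 0.21, *Decr1* 0.21, *Cpt2* 0.19, *Lpl* 0.18, *Pnpla2* 0.17, *Eci2* 0.15, *Ech1* 0.13, *Hadha* 0.13, *Etfa* 0.088, *Acads* 0.066, *Etfb* 0.053, *Cpt1a* 0.037 and *Slc25a20* 0.0006. None of these was past the threshold. The share of the 33 genes in the GFP library of batch 2 was 0.978% of the TMM-scaled library size, in place of 0.915%.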
